A study of Mus musculus with 17 samples.

Results

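Principal cells of the kidney collecting duct made up 124 of the 68159 cells kept from 9 kidney libraries, in a series of 107534 cell barcodes from skin and kidney. They were chosen by their own transcripts. A cell was kept if it had at least 200 genes and at most 30% of its unique molecular identifiers (UMIs, each standing for 1 captured transcript) from the mitochondrial genome. It was called a principal cell if it had at least 3 UMIs of Aqp2, at least 1 UMI of Hsd11b2, Aqp3 or Fxyd4, at most 1 UMI of Atp6v1g3 and none of Slc12a1 or Ptprc. Levels of these 7 genes are therefore given as a description and were not tested.

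The collecting duct is the last segment of the renal tubule, where the final volume and salt content of urine are set. Its principal cells take up water through the water channel Aqp2, which vasopressin brings to the apical membrane, and water leaves them through the basolateral channels Aqp3 and Aqp4. They take up sodium through the epithelial sodium channel and secrete potassium under the control of aldosterone. Hsd11b2 inactivates glucocorticoids in these cells, so that the mineralocorticoid receptor can respond to aldosterone. Intercalated cells, which carry acid and base, lie between them.

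The kidney experiment crossed the SARATg transgene (SARA, an endosomal protein encoded by Zfyve9 and named for its binding to Smad proteins and the TGF-beta receptor) with aristolochic acid (AA), a plant nephrotoxin. The authors built the transgene from cDNA of human ZFYVE9. All mice, aged 8 weeks, carried PDGFRb-Cre and the Z/EG reporter, so that cells with a history of Pdgfrb expression make GFP, and GFP+ cells were sorted after Liberase digestion of kidney. SARAWT mice without the transgene gave 3 vehicle libraries and 3 AA libraries, and SARATg mice gave 2 vehicle libraries and 1 AA library. AA was given by intraperitoneal injection of 5 mg/kg 3 times a week for 3 weeks. The labels do not say that each library came from a different mouse, so p-values measure only the spread between these libraries, which may be technical. No principal cell held a UMI of Pdgfrb, the gene whose promoter drives the Cre.

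Total UMIs per library ranged from 28660151 to 137093834. SARAWT vehicle 1 and 2 stood apart, with medians of 9470 and 8316 UMIs per kept cell against 3975 to 5658 in the other 7 libraries, and with Ptprc UMIs in 12.1% and 17.2% of cells against 48.1% to 82.1%. The counts are of mouse Zfyve9, and how far reads of the human transgene fall on it was not tested. Zfyve9 over all kept cells went against 2 labels. It was at 25.9, 31.9 and 10.9 counts per 1000000 UMIs (CPM) in SARAWT vehicle 1 to 3, 95.8 and 92.2 in SARATg vehicle 1 and 2, but 166 in the library labelled SARAWT AA 1 and 20.7 in the library labelled SARATg AA 1, beside 13.1 and 13.3 in SARAWT AA 2 and 3. In principal cells Zfyve9 was at 24.2, 53.6 and 13.3 CPM in SARAWT vehicle 1 to 3, 229 and 0 in the libraries labelled SARAWT AA 1 and 3, 213 and 174 in SARATg vehicle 1 and 2 and 35.9 in that labelled SARATg AA 1. Thus the library labelled SARAWT AA 1 was at the level of the SARATg libraries in principal cells too, and that labelled SARATg AA 1 was near the SARAWT vehicle libraries. Xist, the RNA of the inactive X chromosome, was at 783 CPM in SARAWT vehicle 2 and 525 CPM in the library labelled SARATg AA 1 and at 0 in principal cells of the other 6 libraries, so sex also differed between libraries. Between 1.66% and 2.13% of each library's barcodes also occurred in another kidney library.

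The 124 cells were spread unevenly. SARAWT vehicle 1 to 3 held 5, 9 and 11 of them, the libraries labelled SARAWT AA 1, 2 and 3 held 18, 0 and 3, SARATg vehicle 1 and 2 held 10 and 52, and the library labelled SARATg AA 1 held 16. As a share of kept cells this was 0.0453%, 0.0826% and 0.149% in SARAWT vehicle, 0.237%, 0% and 0.0534% in the libraries labelled SARAWT AA, 0.147% and 0.789% in SARATg vehicle and 0.207% in that labelled SARATg AA. The exact 95% binomial intervals ran from 0.0147% to 0.106% in SARAWT vehicle 1 and from 0.590% to 1.03% in SARATg vehicle 2, and up to 0.0818% in SARAWT AA 2, where 3 counts, the limit used for a count of 0, make 0.0665% of its 4509 cells. These limits cover counting error only. The shares of the SARAWT vehicle and AA libraries overlapped, and the pair of SARATg vehicle libraries differed from each other by more than counting error. Of kept cells without Ptprc UMIs, principal cells made up 0.0515%, 0.0997% and 0.538% in SARAWT vehicle and 1.32%, 0% and 0.286% in the libraries labelled SARAWT AA. They made up 0.284% and 1.59% of such cells in SARATg vehicle and 0.612% in that labelled SARATg AA. The GFP sort, the amount of tubule that survived digestion and the share of Ptprc+ cells can each set these shares, and their part was not tested.

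**Figure D1:**
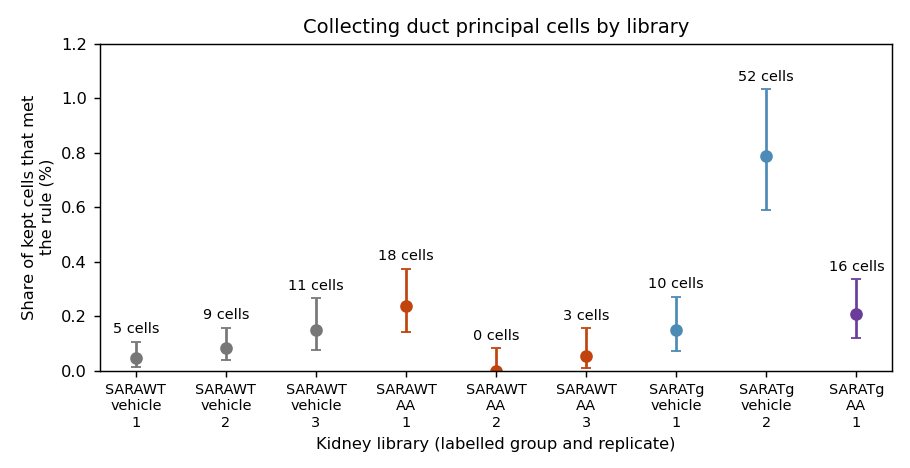
Share of kept cells that met the rule (%) in each of the 9 kidney libraries, with points for the share, bars for exact 95% binomial intervals and the number of cells above each. SARATg vehicle 2 held 52 of the 124 cells (0.789% of its kept cells) and SARAWT AA 2 held 0.

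The genes of the rule were detected as follows, which the rule itself sets. Aqp3 was detected in 120 of the 124, Fxyd4, a regulator of the sodium pump, in 116 and Hsd11b2 in 113, and 106 had all 3. Aqp2 ranged from 3 to 452 UMIs per cell with a median of 84, in cells with a median of 10662 UMIs and 3278.5 genes. Few cells lay near the threshold: 17 cells that met the rest of the rule had 1 Aqp2 UMI and 1 cell had 2, while 4 cells had 3 and 2 had 4. Of 176 cells with at least 3 Aqp2 UMIs, 18 were left out for Atp6v1g3, 3 for Slc12a1 and 36 for Ptprc, some for more than 1 of these. Free Aqp2 RNA was sparse, with 135 of 33587 Ptprc+ cells holding any Aqp2 UMI. Summed over cells, Aqp2 was at 5754, 13338 and 9403 CPM in SARAWT vehicle 1 to 3, 7545 and 27809.6 in the libraries labelled SARAWT AA 1 and 3, 8939.6 and 13794 in SARATg vehicle 1 and 2 and 5019 in that labelled SARATg AA 1. Hsd11b2 was at 4255, 3259 and 2745 CPM in SARAWT vehicle 1 to 3, 3707 and 5306 in the libraries labelled SARAWT AA 1 and 3, 4107 and 3157 in SARATg vehicle 1 and 2 and 1520.5 in that labelled SARATg AA 1. Aqp2 varied between libraries over the range of 5019 to 27809.6 CPM. In the library labelled SARATg AA 1 both genes were split between cells. There 8 of 16 cells, which had 187 to 805 UMIs of the connecting tubule genes described further on, held 333 of its 339 Hsd11b2 UMIs and 126 of its 1119 Aqp2 UMIs, and the other 8 cells held 6 and 993. In SARATg vehicle 2, 17 of 52 cells with over 100 such UMIs held 502 of 1381 Hsd11b2 and 688 of 6034 Aqp2 UMIs. Some cells of other libraries also had Aqp2 but neither Hsd11b2 nor connecting tubule UMIs. Among them were cells with 124 and 134 Aqp2 UMIs in SARAWT vehicle 3 and with 190 in SARAWT AA 3.

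The region just upstream of Aqp2 is shown because Aqp2 defines the cells, and that of Krt8, an epithelial keratin described further on, because it was higher than in each neighbouring cell type and its upstream region holds the same letters. Both run 5′ to 3′ along the gene and end at the base before the RefSeq transcription start (GRCm38.p6), for Aqp2 at chr15:99578806-99579055, plus strand, and for Krt8 at chr15:102004343-102004592, minus strand. Capitals mark the letters AGATAA, a core GATA motif, on either strand (TTATCT where it lies on the other strand).
Aqp2: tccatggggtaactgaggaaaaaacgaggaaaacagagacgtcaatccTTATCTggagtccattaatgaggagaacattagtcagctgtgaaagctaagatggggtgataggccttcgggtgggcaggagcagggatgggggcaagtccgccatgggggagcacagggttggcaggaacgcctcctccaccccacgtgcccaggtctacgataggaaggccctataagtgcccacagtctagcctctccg
Krt8: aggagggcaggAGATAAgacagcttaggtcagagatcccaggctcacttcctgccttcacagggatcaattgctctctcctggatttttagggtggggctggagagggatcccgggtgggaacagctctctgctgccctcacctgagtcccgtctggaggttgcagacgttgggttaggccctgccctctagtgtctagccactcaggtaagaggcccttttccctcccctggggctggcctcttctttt
The match lay 202 bases before the start of Aqp2 and 239 bases before that of Krt8. Of 27025 mouse promoter windows of RefSeq, which run from 250 bases before to 50 bases after a start, 11.4% held these letters, and of the 170 matched windows among the 231 genes higher than in all 3 neighbouring cell types, 6.47% did. The letters were thus not more frequent in this set than in promoters at large. In the same set 4.71% held TGANTCA (AP-1), 1.18% held TGACGTCA (cyclic AMP response element) and 13.5% held GGAATG (TEAD), against 7.93%, 1.88% and 14.6% of all windows. No window of Avpr2, Scnn1b, Scnn1g, Gata2 or Gata3 held any of the 4 motifs in the 250 bases before its start, which says only that these letters are not in that stretch.

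To place the transcripts of principal cells, their summed UMIs were compared with those of 3 tubule cell types gated in the same libraries: 674 intercalated cells, 512 cells of the thick ascending limb of Henle's loop, which reabsorbs salt without water, and 802 cells of the distal convoluted tubule, the segment before the connecting tubule. The 5 libraries with at least 10 principal cells entered (SARAWT vehicle 3, SARATg vehicle 1 and 2, and those labelled SARAWT AA 1 and SARATg AA 1), each compared with itself, so that genotype and treatment labels do not enter. Differences are log2 of principal over the other cell type ± SE from edgeR's quasi-likelihood test with Benjamini-Hochberg adjustment, and means are CPM ± SD over these 5 libraries. Each type was gated on its own markers, so the differences give the size of what goes with that choice and are no independent evidence of cell identity. Against intercalated cells 994 of 4026 genes passed an adjusted p of 0.05 (24.7%), with 526 higher in principal cells (13.1%) and 468 lower (11.6%). Against thick ascending limb cells 791 of 3948 passed (20.0%), 392 higher (9.93%) and 399 lower (10.1%). Against distal convoluted tubule cells 1337 of 4866 passed (27.5%), 678 higher (13.9%) and 659 lower (13.5%). Of 3598 genes tested in all 3 comparisons, 231 were higher in principal cells each time and 151 lower each time. Among the genes tested, 165, 134 and 160 were below the level of the filter on low counts (34.8, 36.0 and 28.0 CPM) in every library of 1 of the cell types compared. These entered the test only through the other type, and 163, 130 and 157 of them passed, so their direction is no result of the test. For such genes the text gives the difference, the ratio or its lower bound as a description with no p, and they are left out of the counts and medians given for each list. Ratios and their bounds are of UMIs summed over the 5 libraries, in which large libraries weigh more, so they differ from ratios of the means. Without them 831 of 3861 genes passed against intercalated (21.5%), 661 of 3814 against thick ascending limb (17.3%) and 1180 of 4706 against distal convoluted tubule cells (25.1%). These shares, with higher and lower genes together, are the background for the counts given for each list below. Of the 231 genes higher each time 148, and of the 151 lower each time 143, had no such comparison.

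**Figure D2:**
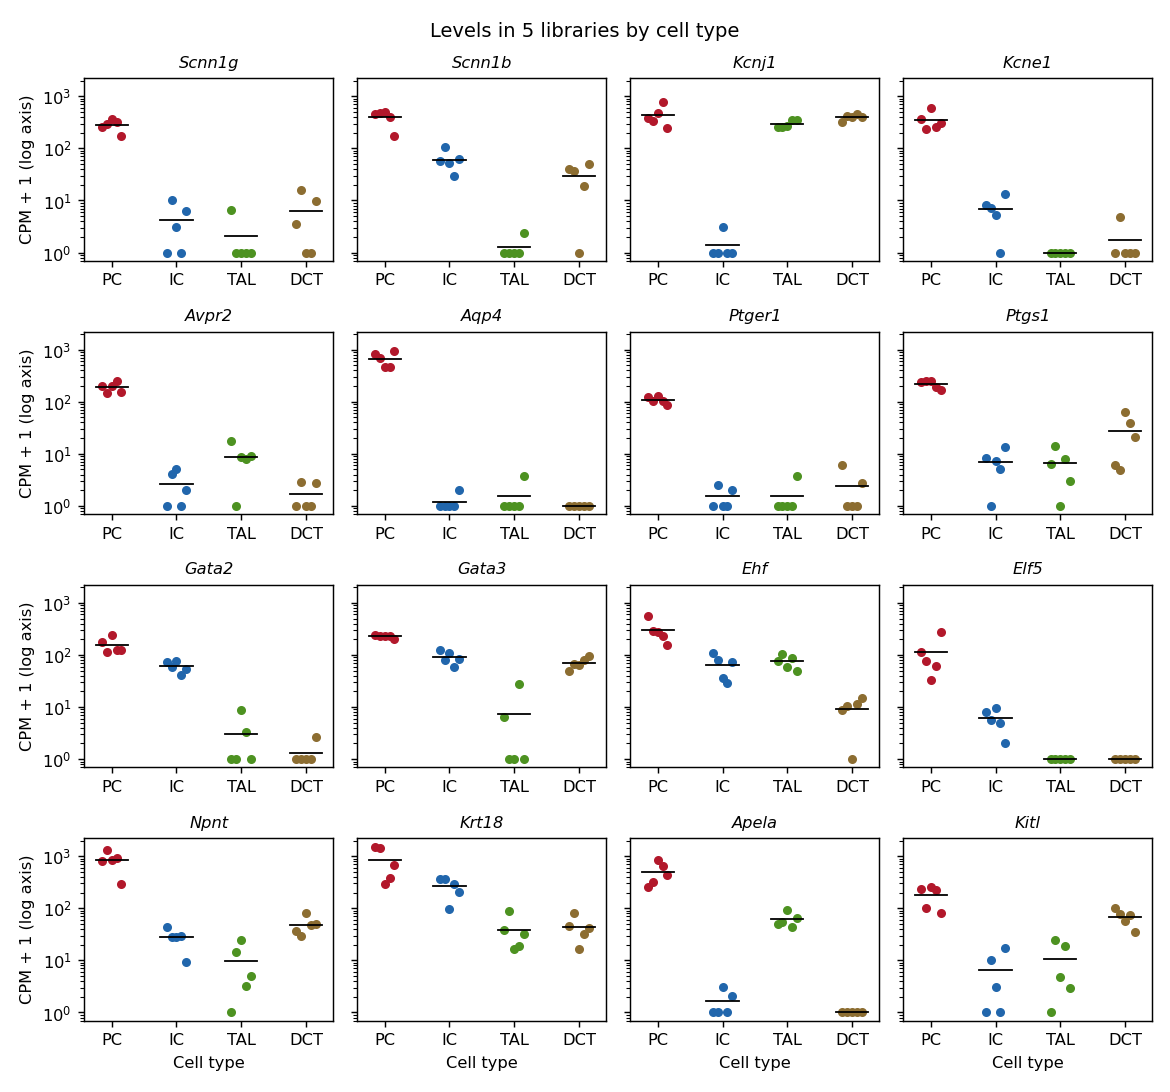
Levels of 16 genes (CPM + 1, log axis) in principal (PC), intercalated (IC), thick ascending limb (TAL) and distal convoluted tubule (DCT) cells, with 1 point for each of 5 libraries and a line at the mean. Avpr2, Aqp4, Ptger1, Scnn1g and Npnt in principal cells lay above all values of the other types, whereas Kcnj1 overlapped with thick ascending limb and distal convoluted tubule cells.

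Transcripts of the gamma and beta subunits of the sodium channel were higher in principal cells than in each neighbouring type. Scnn1g, the gamma subunit of the epithelial sodium channel, was at 290.1, 365 and 252 CPM in SARAWT vehicle 1 to 3, 290.3 and 426 in the libraries labelled SARAWT AA 1 and 3, 363 and 313 in SARATg vehicle 1 and 2 and 170.4 in that labelled SARATg AA 1. The mean in principal cells was 278 ± 72.1 CPM, against 3.29 ± 3.91 in intercalated, 1.09 ± 2.43 in thick ascending limb and 5.26 ± 6.54 in distal convoluted tubule cells. Its level in principal cells lay between 170.4 and 426 CPM and did not overlap with any neighbouring type. Scnn1g was higher by 5.64 ± 0.36 than in intercalated cells, higher than in thick ascending limb cells, with 1 UMI there and a ratio of 742 on summed UMIs (95% counting interval 132 to 29373), and higher by 5.07 ± 0.40 than in distal convoluted tubule cells. That ratio is not the ratio of the means over libraries. Scnn1b, the beta subunit, was at 580.2, 279 and 451 CPM in SARAWT vehicle 1 to 3, 471 and 819 in the libraries labelled SARAWT AA 1 and 3, 491 and 393 in SARATg vehicle 1 and 2 and 175 in that labelled SARATg AA 1. Scnn1b was higher by 2.54 ± 0.27 than in intercalated cells (adjusted p = 1.45e-05), higher than in thick ascending limb cells, with 2 UMIs there and a ratio of 519 (95% counting interval 143 to 4300.2), and higher by 3.40 ± 0.38 than in distal convoluted tubule cells (adjusted p = 4.33e-05). Scnn1a, the alpha subunit, had smaller differences. Scnn1a was higher by 1.17 ± 0.29 than in thick ascending limb cells (adjusted p = 0.0178), but not without the library labelled SARAWT AA 1 (0.94, adjusted p = 0.0625). The other differences of Scnn1a were 0.10 ± 0.20 against intercalated cells (adjusted p = 0.793) and 0.45 ± 0.20 against distal convoluted tubule cells (adjusted p = 0.112), which did not pass. With libraries of at least 3 cells Scnn1a did pass against distal convoluted tubule cells (0.66, adjusted p = 0.0120).

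Potassium channels were divided between the cell types. Kcnj1 (ROMK), the apical potassium secretory channel, averaged 439.8 ± 196 CPM in principal cells, 296 ± 50.4 in thick ascending limb and 401 ± 49.1 in distal convoluted tubule cells. Kcnj1 was higher than in intercalated cells, with 1 UMI there and a ratio of 1207 (95% counting interval 216 to 47754). The other differences of Kcnj1 were 0.40 ± 0.20 against thick ascending limb cells (adjusted p = 0.208) and 0.01 ± 0.20 against distal convoluted tubule cells (adjusted p = 0.981), which did not pass. Kcne1, an accessory subunit of voltage-gated potassium channels, averaged 353 ± 151 CPM. Kcne1 was higher by 5.43 ± 0.33 than in intercalated cells, at least 265-fold higher than in thick ascending limb cells, where no UMI was counted, and higher than in distal convoluted tubule cells, with 2 UMIs there and a ratio of 387 (95% counting interval 106 to 3207). Against thick ascending limb cells Kcnj1 was past the threshold with libraries of at least 3 cells (0.62, adjusted p = 0.0283) and without the library labelled SARATg AA 1 (0.66, adjusted p = 0.0374). For Kcnj10 and Kcnj16, which form the basolateral potassium channel, the differences from intercalated cells were 5.04 ± 0.38 and 5.14 ± 0.30, with the higher level in principal cells.

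The aldosterone response was represented by its receptor and a target. Nr3c2, the mineralocorticoid receptor, was low in counts. Nr3c2 was higher by 1.40 ± 0.34 than in distal convoluted tubule cells (adjusted p = 0.00891), and its differences from intercalated and thick ascending limb cells, which were below the filter, were 1.41 ± 0.32 and 1.87 ± 0.42. Sgk1, a kinase induced by aldosterone that keeps the sodium channel at the membrane, was at 24.2, 515 and 590.2 CPM in SARAWT vehicle 1 to 3, 529 and 491 in the libraries labelled SARAWT AA 1 and 3, 203 and 128 in SARATg vehicle 1 and 2 and 408 in that labelled SARATg AA 1. Sgk1 was thus lowest in SARAWT vehicle 1 and spread over the other libraries. Sgk1 was higher by 3.18 ± 0.31 than in intercalated cells (adjusted p = 6.40e-06), by 4.06 ± 0.43 than in thick ascending limb cells (adjusted p = 1.15e-04), and by 3.05 ± 0.41 than in distal convoluted tubule cells (adjusted p = 1.57e-04). A regulator of the sodium pump went the other way. Fxyd2, a regulatory subunit of that pump, was lower than in intercalated cells, with a difference of -2.76 ± 0.40 (adjusted p = 1.89e-04), lower than in thick ascending limb cells, with a difference of -4.03 ± 0.65 (adjusted p = 0.00168), and lower than in distal convoluted tubule cells, with a difference of -4.75 ± 0.59 (adjusted p = 8.21e-05). Of the sodium and potassium transport and aldosterone response genes, 3 were higher and 2 lower of 11 counted against intercalated cells, 3 and 4 of 15 against thick ascending limb cells and 4 and 5 of 17 against distal convoluted tubule cells (7 and 4 without the library labelled SARATg AA 1). The median difference of these members was 0.37, 0.20 and 0.01 in the 3 comparisons, beside 0.02, -0.01 and 0.02 for all genes tested. Of all genes counted, 21.5%, 17.3% and 25.1% passed, higher and lower together.

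Of the water pathway, the vasopressin receptor and the basolateral water channel had their highest levels in principal cells, and the list as a whole did not lie to 1 side. Avpr2, the vasopressin V2 receptor, was at 290.1, 472 and 199 CPM in SARAWT vehicle 1 to 3, 144 and 328 in the libraries labelled SARAWT AA 1 and 3, 203 and 245 in SARATg vehicle 1 and 2 and 152 in that labelled SARATg AA 1. Avpr2 was higher by 6.15 ± 0.36 than in intercalated cells, by 4.51 ± 0.34 than in thick ascending limb cells, and higher than in distal convoluted tubule cells, with 3 UMIs there and a ratio of 167 (95% counting interval 56.3 to 813). Aqp4, the basolateral water channel, was at 411, 836 and 816 CPM in SARAWT vehicle 1 to 3, 703 and 3439 in the libraries labelled SARAWT AA 1 and 3, 459 and 464 in SARATg vehicle 1 and 2 and 924 in that labelled SARATg AA 1. The library labelled SARAWT AA 3, with 3 principal cells, had the highest Aqp4 level, and the other 7 libraries lay within 411 to 924 CPM. Aqp4 was higher than in intercalated cells, with 1 UMI there and a ratio of 1619 (95% counting interval 289.8 to 64044), higher by 8.81 ± 0.34 than in thick ascending limb cells, and at least 566-fold higher than in distal convoluted tubule cells, where no UMI was counted. Slc14a2, the urea transporter of the collecting duct, averaged 20.2 ± 21.2 CPM in principal cells and had no UMI in the other 3 types, which puts it at least 11.4-fold, 12.3-fold and 11.9-fold higher than in intercalated, thick ascending limb and distal convoluted tubule cells, with no test because its counts were low. Gnas, the stimulatory G protein that couples Avpr2 to cyclic AMP, was not a principal cell gene. Gnas was lower than in intercalated cells, with a difference of -0.70 ± 0.13 (adjusted p = 0.00125). The other differences of Gnas were 0.02 ± 0.13 against thick ascending limb cells (adjusted p = 0.967) and -0.31 ± 0.13 against distal convoluted tubule cells (adjusted p = 0.0994), which did not pass.

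Prostaglandin E2 opposes vasopressin in the collecting duct, and transcripts of its receptors and of the enzymes that make it were measured. Ptger1 (EP1) was at 242, 268 and 119 CPM in SARAWT vehicle 1 to 3, 104 and 262 in the libraries labelled SARAWT AA 1 and 3, 128 and 103 in SARATg vehicle 1 and 2 and 85.2 in that labelled SARATg AA 1. Ptger1 was higher than in intercalated cells, with 2 UMIs there and a ratio of 129 (95% counting interval 34.9 to 1075), higher by 5.83 ± 0.47 than in thick ascending limb cells, and by 5.73 ± 0.44 than in distal convoluted tubule cells. Ptger3 (EP3) had no UMI in any of the 124 cells. It averaged 291 ± 66.3 CPM in thick ascending limb and 111 ± 46.7 CPM in distal convoluted tubule cells. On UMIs summed over the 5 libraries, which do not give the ratio of these means, Ptger3 was at least 141-fold lower than in thick ascending limb cells and at least 39.5-fold lower than in distal convoluted tubule cells. A pair of enzymes that lead to the ligand was picked out after its values were seen. Ptgs1, cyclooxygenase 1, was higher by 4.92 ± 0.42 than in intercalated cells, by 5.32 ± 0.37 than in thick ascending limb cells, and by 3.35 ± 0.42 than in distal convoluted tubule cells (adjusted p = 1.00e-04). Ptges, prostaglandin E synthase, was higher by 1.86 ± 0.23 than in intercalated cells (adjusted p = 4.82e-05), by 5.14 ± 0.37 than in thick ascending limb cells, and by 3.65 ± 0.38 than in distal convoluted tubule cells. Of the vasopressin signalling and water transport genes, 2 were higher and 3 lower of 7 counted against intercalated cells, 1 and 1 of 8 against thick ascending limb cells and 1 and 0 of 11 against distal convoluted tubule cells. Their medians were -0.37, 0.20 and -0.09, and 21.5%, 17.3% and 25.1% of all genes counted passed.

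Genes of the response to high salt in the medulla moved in both directions. Akr1b3, aldose reductase, which makes the osmolyte sorbitol, was at 193, 75.1 and 550.4 CPM in SARAWT vehicle 1 to 3, 73.3 and 131 in the libraries labelled SARAWT AA 1 and 3, 320.03 and 73.2 in SARATg vehicle 1 and 2 and 1328 in that labelled SARATg AA 1. Akr1b3 was higher by 2.53 ± 0.59 than in intercalated cells (adjusted p = 0.00678), by 2.43 ± 0.64 than in thick ascending limb cells (adjusted p = 0.0231), and by 3.19 ± 0.54 than in distal convoluted tubule cells (adjusted p = 8.69e-04). Its level spread widely between libraries, and the highest came from that labelled SARATg AA 1. The difference of Akr1b3 from thick ascending limb cells did not pass without SARAWT vehicle 3 (2.19, adjusted p = 0.0907) or without that labelled SARATg AA 1 (1.58, adjusted p = 0.0556). Of the osmotic response genes, 2 were higher and 2 lower of 9 tested against intercalated cells, 3 and 3 of 8 against thick ascending limb cells and 4 and 3 of 9 against distal convoluted tubule cells (2 and 3 of 8 without the library labelled SARAWT AA 1). Slc5a3, which imports the osmolyte inositol, was among the lower genes against both thick ascending limb and distal convoluted tubule cells.

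Transcription factors of the collecting duct were in part higher in principal cells, most often against intercalated and thick ascending limb cells. Gata3 lay between 202 and 239 CPM in 7 of the 8 libraries, at 218, 204 and 239 CPM in SARAWT vehicle 1 to 3, 226 and 459 in the libraries labelled SARAWT AA 1 and 3, 235 and 229 in SARATg vehicle 1 and 2 and 202 in that labelled SARATg AA 1. Gata3 was higher by 1.32 ± 0.19 than in intercalated cells (adjusted p = 2.27e-04), by 5.24 ± 0.67 than in thick ascending limb cells, and by 1.62 ± 0.19 than in distal convoluted tubule cells (adjusted p = 6.65e-05). Gata2, a factor that sustains Aqp2 expression, was higher by 1.26 ± 0.20 than in intercalated cells (adjusted p = 3.59e-04), higher than in thick ascending limb cells, with 3 UMIs there and a ratio of 121 (95% counting interval 40.8 to 595), and higher than in distal convoluted tubule cells, with 2 UMIs there and a ratio of 177 (95% counting interval 48.3 to 1475). Ehf, an epithelial Ets factor, was higher by 2.06 ± 0.26 than in intercalated cells (adjusted p = 5.45e-05), by 1.79 ± 0.21 than in thick ascending limb cells (adjusted p = 2.38e-04), and by 4.61 ± 0.33 than in distal convoluted tubule cells. Elf5, another Ets factor, averaged 111 ± 95.6 CPM with a range of 24.2 to 274 CPM over 8 libraries. Elf5 was at least 92.8-fold higher than in distal convoluted tubule cells, where no UMI was counted. Tfcp2l1, which directs the choice between principal and intercalated fates, was found in both. Tfcp2l1 was lower than in intercalated cells, with a difference of -0.68 ± 0.15 (adjusted p = 0.00557), higher by 1.21 ± 0.21 than in thick ascending limb cells (adjusted p = 0.00262), and by 1.15 ± 0.17 than in distal convoluted tubule cells (adjusted p = 2.71e-04). Of the collecting duct identity factor genes, 8 were higher and 1 lower of 11 counted against intercalated cells, 7 and 1 of 10 against thick ascending limb cells and 6 and 4 of 11 against distal convoluted tubule cells. The members that were lower than in distal convoluted tubule cells were Emx1, Hoxd10, Tfap2b and Hoxd8, and Tfap2b was the member lower than in thick ascending limb cells. That difference of Tfap2b did not pass without the library labelled SARAWT AA 1 (adjusted p = 0.115), that labelled SARATg AA 1 (adjusted p = 0.153) or SARATg vehicle 1 (adjusted p = 0.0643). Medians of the list were 1.26, 0.81 and 0.77.

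Most counted members of the keratin, junction and adhesion list were higher in principal cells in each comparison. This list also held Apela, Mal, Rhcg, Spint2 and Wfdc2, which are of other kinds. It was chosen with earlier results of these data known, so its counts in part restate that choice. Of the keratin, junction and adhesion genes, 14 were higher and 0 lower of 17 counted against intercalated cells, 12 and 1 of 17 against thick ascending limb cells and 16 and 0 of 18 against distal convoluted tubule cells. Ocln was the member lower than in thick ascending limb cells, and the list's medians were 1.13, 1.499 and 1.90. Krt8 was at 266, 204 and 1432 CPM in SARAWT vehicle 1 to 3, 1265 and 295 in the libraries labelled SARAWT AA 1 and 3, 256 and 206 in SARATg vehicle 1 and 2 and 413 in that labelled SARATg AA 1. Krt8 was thus high in SARAWT vehicle 3 and in the library labelled SARAWT AA 1 and between 204 and 413 CPM in the other 6. Krt8 was higher by 1.90 ± 0.25 than in intercalated cells (adjusted p = 8.63e-05), by 1.80 ± 0.26 than in thick ascending limb cells (adjusted p = 7.70e-04), and by 1.88 ± 0.25 than in distal convoluted tubule cells (adjusted p = 1.54e-04). Krt18, the partner of Krt8 in epithelial filaments, was higher by 1.52 ± 0.21 than in intercalated cells (adjusted p = 1.59e-04), by 4.39 ± 0.20 than in thick ascending limb cells (adjusted p = 4.84e-07), and by 4.19 ± 0.20 than in distal convoluted tubule cells (adjusted p = 7.54e-08). Cldn4, a claudin of the collecting duct that forms the chloride path between cells, was higher by 1.13 ± 0.27 than in intercalated cells (adjusted p = 0.00778), by 3.61 ± 0.31 than in thick ascending limb cells (adjusted p = 2.54e-05), and by 1.97 ± 0.22 than in distal convoluted tubule cells (adjusted p = 4.33e-05). Cldn8, its partner, was higher by 0.59 ± 0.18 than in intercalated cells (adjusted p = 0.0324), by 2.53 ± 0.33 than in thick ascending limb cells (adjusted p = 4.37e-04), and by 1.07 ± 0.14 than in distal convoluted tubule cells (adjusted p = 1.54e-04). Against intercalated cells, Cldn4 did not pass without the library labelled SARAWT AA 1 (adjusted p = 0.0722), and Cldn8 did not pass with DESeq2 (adjusted p = 0.119) or without that library (adjusted p = 0.128), SARAWT vehicle 3 (adjusted p = 0.0576), SARATg vehicle 1 (adjusted p = 0.0575) or that labelled SARATg AA 1 (adjusted p = 0.0560).

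Secreted and matrix proteins of principal cells formed the next set. Npnt (nephronectin), a basement membrane ligand of integrin alpha 8 beta 1, was at 1426, 1973 and 809 CPM in SARAWT vehicle 1 to 3, 1332 and 3112 in the libraries labelled SARAWT AA 1 and 3, 832 and 908 in SARATg vehicle 1 and 2 and 292 in that labelled SARATg AA 1. Npnt was higher by 4.997 ± 0.21 than in intercalated cells (adjusted p = 5.55e-09), by 6.44 ± 0.37 than in thick ascending limb cells, and by 3.998 ± 0.35 than in distal convoluted tubule cells (adjusted p = 5.76e-06). Apela, a peptide ligand of the apelin receptor, was at 725, 493 and 259 CPM in SARAWT vehicle 1 to 3, 324 and 949.9 in the libraries labelled SARAWT AA 1 and 3, 832 and 647 in SARATg vehicle 1 and 2 and 426 in that labelled SARATg AA 1. Apela was higher than in intercalated cells, with 2 UMIs there and a ratio of 605 (95% counting interval 167 to 5003), higher by 2.91 ± 0.22 than in thick ascending limb cells (adjusted p = 1.35e-05), and at least 422-fold higher than in distal convoluted tubule cells, where no UMI was counted. Both genes were present in every library, and Npnt was lowest in that labelled SARATg AA 1. Kitl, the ligand of the receptor Kit, was higher by 3.99 ± 0.51 than in intercalated cells, by 4.04 ± 0.47 than in thick ascending limb cells, and by 1.23 ± 0.23 than in distal convoluted tubule cells (adjusted p = 0.00182). Kit itself had no UMI in principal cells and averaged 226 ± 86.0 CPM in intercalated cells. Kit was at least 93.3-fold lower than in intercalated cells. Stc1, the secreted glycoprotein stanniocalcin 1, was higher than in intercalated cells, with 1 UMI there and a ratio of 195 (95% counting interval 34.2 to 7786), higher than in thick ascending limb cells, with 2 UMIs there and a ratio of 105 (95% counting interval 28.3 to 881), and higher by 5.15 ± 0.51 than in distal convoluted tubule cells. Col26a1, a collagen gene, was higher than in intercalated cells, with 1 UMI there and a ratio of 207 (95% counting interval 36.4 to 8263), at least 74.4-fold higher than in thick ascending limb cells, where no UMI was counted, and at least 72.4-fold higher than in distal convoluted tubule cells, where no UMI was counted. Of the paracrine ligand and Notch genes, 1 was higher and 1 lower of 6 counted against intercalated cells, 3 and 0 of 6 against thick ascending limb cells (1 and 0 without SARAWT vehicle 3) and 5 and 0 of 9 against distal convoluted tubule cells. The shares of all genes counted that passed were 21.5%, 17.3% and 25.1%. Jag1, a Notch ligand, was lower than in intercalated cells, whereas Hes1, a Notch target, was higher than in distal convoluted tubule cells.

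**Figure D3:**
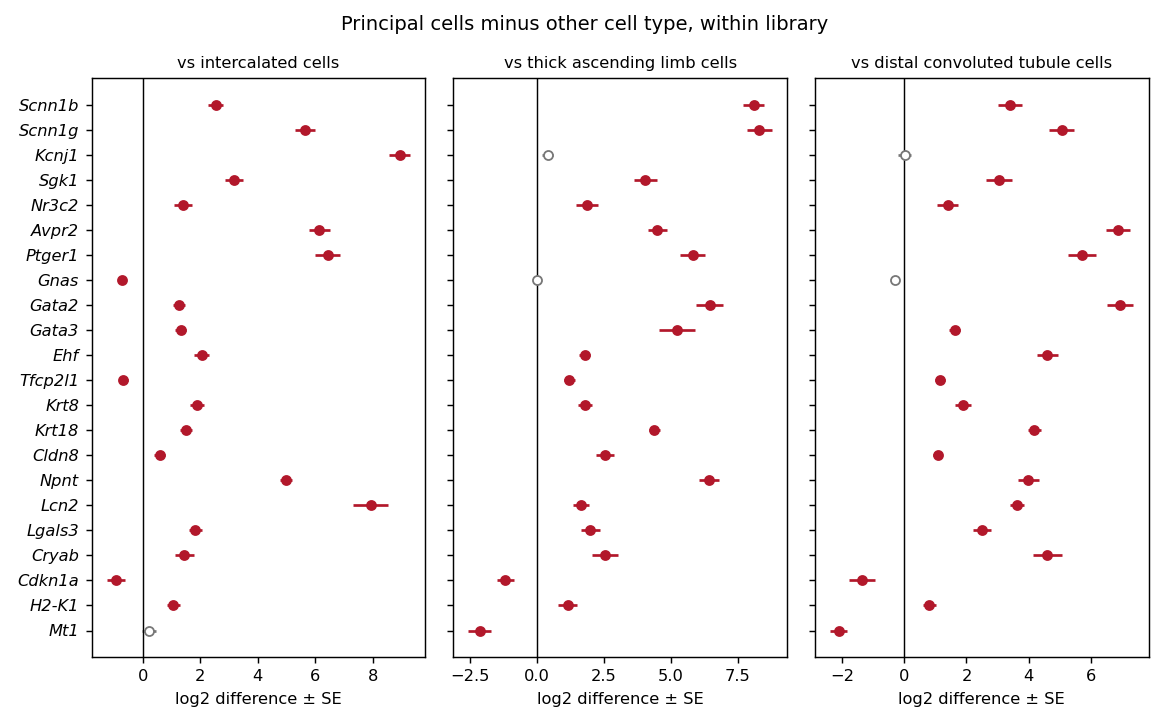
Log2 difference (principal cells minus the other cell type) ± SE of 22 genes from edgeR over 5 libraries, 1 panel per cell type, with filled points past an adjusted p of 0.05 and open points not. Scnn1b, Scnn1g, Avpr2, Gata3, Krt8 and Npnt lay to the right of 0 in all 3 panels and Cdkn1a to the left, the direction of genes that passed the filter through 1 type, such as Avpr2, was set by that filter, and fitted values of genes with 1 to 3 UMIs in the other type, such as Kcnj1 against intercalated cells, depend on the fit's prior count.

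Markers of the neighbouring cell types were partly present in principal cells. Hmx2, Slc4a9, Insrr and Slc4a1, markers of intercalated cells, had no UMI there. The intercalated cell markers not used by the rule summed to between 1014 and 1668 CPM in the 8 libraries, against 46.1 to 357 CPM over all kept cells, and Tmem213 alone was at 740.1 to 1220.2 CPM. Umod, a protein secreted by the thick ascending limb, was at 569.6 CPM in the library labelled SARATg AA 1 and at 0 to 34.3 CPM in the other 7. In that labelled SARATg AA 1, cells with 63, 33 and 27 Umod UMIs held most of it, and no other cell there had over 2. No count of called markers is given, since several entered the test only through the cell type that makes them. Among the largest differences were Egf, a secreted growth factor precursor of the distal tubule, and Atp6v0d2, a subunit of the intercalated cell proton pump. Egf was lower than in thick ascending limb cells, with a difference of -8.81 ± 0.39 and lower than in distal convoluted tubule cells, with a difference of -8.06 ± 0.42. Atp6v0d2 had 2 UMIs in principal cells of the 5 libraries. The 13 genes of the mitochondrial genome had a median difference of -0.77 from intercalated cells. The rule and the gates of the other cell types capped the UMIs of these genes at 30% per cell. The median is therefore a description, and no calls are given for them.

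Several genes used as signs of tubule injury were higher in principal cells than in their neighbours. Of the tubule injury genes, 8 were higher and 1 lower of 12 counted against intercalated cells, 6 and 2 of 15 against thick ascending limb cells and 8 and 0 of 12 against distal convoluted tubule cells. The list's medians were 1.88, 0.41 and 2.09. Lcn2, a siderophore-binding protein released by stressed collecting duct and also an antibacterial defence, was at 72.5, 525 and 2394 CPM in SARAWT vehicle 1 to 3, 2707 and 1146 in the libraries labelled SARAWT AA 1 and 3, 42.7 and 1170.5 in SARATg vehicle 1 and 2 and 3682 in that labelled SARATg AA 1. It ranged widely, and the highest level was in the library labelled SARATg AA 1 and the lowest in SARATg vehicle 1. Lcn2 was higher by 7.93 ± 0.61 than in intercalated cells (adjusted p = 8.14e-07), by 1.66 ± 0.29 than in thick ascending limb cells (adjusted p = 0.0025), and by 3.63 ± 0.24 than in distal convoluted tubule cells (adjusted p = 8.02e-07). Cryab, a small heat shock protein abundant in the medulla, was higher by 1.46 ± 0.35 than in intercalated cells (adjusted p = 0.00758), by 2.55 ± 0.48 than in thick ascending limb cells (adjusted p = 0.00394), and by 4.61 ± 0.46 than in distal convoluted tubule cells (adjusted p = 1.72e-05). Lgals3, galectin 3, was higher by 1.84 ± 0.21 than in intercalated cells (adjusted p = 2.52e-05), by 2.003 ± 0.36 than in thick ascending limb cells (adjusted p = 0.00307), and by 2.50 ± 0.30 than in distal convoluted tubule cells (adjusted p = 7.27e-05). Havcr1, the injury marker of the proximal tubule, had 1 UMI in all principal cells together.

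Genes of antigen presentation were higher in principal cells in part, and the counts depended on single libraries. Of the interferon and antigen presentation genes, 6 were higher and 0 lower of 10 tested against intercalated cells, 6 and 2 of 12 against thick ascending limb cells and 9 and 2 of 13 against distal convoluted tubule cells. Without SARAWT vehicle 3 they were 6 and 0 of 13, 3 and 3 of 11, and 4 and 1 of 11, and without the library labelled SARAWT AA 1 they were 3 and 2 of 12 against thick ascending limb cells. In SARAWT vehicle 3, 1 of 11 principal cells held 88 of the 103 leukocyte marker UMIs and 928 of the 2042 UMIs of this list, and the part of leukocyte transcripts in these differences was not tested. H2-K1, a class I molecule, was higher by 1.07 ± 0.23 than in intercalated cells (adjusted p = 0.00404), by 1.15 ± 0.35 than in thick ascending limb cells (adjusted p = 0.0434), and by 0.81 ± 0.21 than in distal convoluted tubule cells (adjusted p = 0.0112). Against thick ascending limb cells H2-K1 did not pass without SARAWT vehicle 3 (0.74, adjusted p = 0.0780), the library labelled SARAWT AA 1 (adjusted p = 0.128) or that labelled SARATg AA 1 (adjusted p = 0.0701), and against distal convoluted tubule cells not without SARAWT vehicle 3 (adjusted p = 0.0703). Ly6e, an interferon-induced surface protein, was higher by 2.28 ± 0.15 than in intercalated cells (adjusted p = 2.52e-07), by 3.04 ± 0.31 than in thick ascending limb cells (adjusted p = 9.36e-05), and by 2.80 ± 0.15 than in distal convoluted tubule cells (adjusted p = 2.24e-07). The medians were 1.10, 0.95 and 0.92. Ly6a was higher than in intercalated cells and lower than in the other 2 types.

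Genes of the p53 response and of antioxidant defence did not follow that direction. Beside each list of this paragraph, 21.5%, 17.3% and 25.1% of all genes counted passed in the 3 comparisons, higher and lower together. Of the p53 target genes, 0 were higher and 4 lower of 9 counted against intercalated cells, 0 and 2 of 11 against thick ascending limb cells and 2 and 3 of 10 against distal convoluted tubule cells. Cdkn1a, a cell cycle inhibitor and p53 target, was lower than in intercalated cells, with a difference of -0.93 ± 0.31 (adjusted p = 0.0434), lower than in thick ascending limb cells, with a difference of -1.18 ± 0.32 (adjusted p = 0.0253), and lower than in distal convoluted tubule cells, with a difference of -1.37 ± 0.42 (adjusted p = 0.0274). None of these 3 differences of Cdkn1a passed without SARAWT vehicle 3 (adjusted p = 0.162, 0.132 and 0.169) or without the library labelled SARAWT AA 1 (adjusted p = 0.200, 0.0941 and 0.142). That from intercalated cells also failed without SARATg vehicle 1 or 2 (adjusted p = 0.0636 and 0.0851), and that from distal convoluted tubule cells without SARATg vehicle 2 (adjusted p = 0.0656). Of the Nrf2 target, glutathione and metallothionein genes, 3 were higher and 4 lower of 20 tested against intercalated cells, 1 and 6 of 20 against thick ascending limb cells and 3 and 7 of 21 against distal convoluted tubule cells. Mt1 and Mt2, metallothioneins that bind heavy metals, and Fth1, a ferritin chain, were lower than in both thick ascending limb and distal convoluted tubule cells. Mt1 was lower than in thick ascending limb cells, with a difference of -2.12 ± 0.43 (adjusted p = 0.00588) and lower than in distal convoluted tubule cells, with a difference of -2.12 ± 0.28 (adjusted p = 1.36e-04). The other difference of Mt1 was 0.22 ± 0.25 against intercalated cells (adjusted p = 0.594), which did not pass. Mt2 went the other way there and passed as higher than in intercalated cells. It did not pass with DESeq2 (0.83, adjusted p = 0.0831) or in edgeR with at least 3 cells (0.53, adjusted p = 0.327). Nor did it pass in edgeR without SARAWT vehicle 3 (adjusted p = 0.0934) or SARATg vehicle 1 (adjusted p = 0.0800). The same held without the library labelled SARAWT AA 1 (adjusted p = 0.239) or that labelled SARATg AA 1 (adjusted p = 0.117). Gsta3, a glutathione transferase, was higher by 0.99 ± 0.24 than in intercalated cells (adjusted p = 0.00817), by 2.17 ± 0.51 than in thick ascending limb cells (adjusted p = 0.0133), and by 4.29 ± 0.52 than in distal convoluted tubule cells (adjusted p = 7.74e-05), but not than in intercalated cells without the library labelled SARAWT AA 1 (adjusted p = 0.0560). Of the TGF-beta genes, 1 was higher and 0 were lower of 11 counted against intercalated cells, 3 and 1 of 10 against thick ascending limb cells and 2 and 0 of 12 against distal convoluted tubule cells. Tgfbr2, the type II receptor of TGF-beta, was higher by 1.84 ± 0.47 than in intercalated cells (adjusted p = 0.011), by 1.56 ± 0.25 than in thick ascending limb cells (adjusted p = 0.00168), and by 2.58 ± 0.34 than in distal convoluted tubule cells (adjusted p = 1.47e-04), but not than in intercalated cells without the library labelled SARAWT AA 1 (adjusted p = 0.100). Zfyve9 had differences of 0.37 ± 0.22 against intercalated cells (adjusted p = 0.251), 0.24 ± 0.21 against thick ascending limb cells (adjusted p = 0.49) and -0.06 ± 0.22 against distal convoluted tubule cells (adjusted p = 0.879), which did not pass the test. Of the immediate early and dissociation genes, 2 were higher and 1 lower of 17 tested against intercalated cells (4 and 1 without the library labelled SARATg AA 1), 3 and 2 of 18 against thick ascending limb cells and 2 and 4 of 20 against distal convoluted tubule cells. Of the innate defence genes, 1 was higher and 0 were lower of 4 tested against intercalated cells, 2 and 0 of 5 against thick ascending limb cells and 2 and 1 of 5 against distal convoluted tubule cells. Of the genes for AA uptake and activation, 0 were higher of 2 and 3 tested against intercalated and thick ascending limb cells and 1 of 2 against distal convoluted tubule cells, and Cyb5a was lower each time, though not against thick ascending limb cells without SARAWT vehicle 3 (adjusted p = 0.0710) or that labelled SARATg AA 1 (adjusted p = 0.0729). Ccnd1 was the single proliferation gene tested and was higher than in intercalated cells.

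Cells of the connecting tubule, which joins the distal convoluted tubule to the collecting duct, also make Aqp2, and the rule does not separate them. Calb1, Slc8a1, Trpv5 and S100g, which carry calcium in that segment, were therefore counted in each cell. At least 1 UMI of these was found in 89 of the 124 cells. The median was 5.5 and the highest value 2870 UMIs, and 33 cells had over 100. These 33 cells came from 6 libraries: 2 and 1 in SARAWT vehicle 1 and 2, 3 in that labelled SARAWT AA 1, 2 and 17 in SARATg vehicle 1 and 2, and 8 in that labelled SARATg AA 1. None was found among the 11 cells of SARAWT vehicle 3 or the 3 of SARAWT AA 3. Proximal tubule UMIs (Slc34a1, Slc5a2, Slc5a12, Slc22a6, Slc7a13 or Slc22a30) were found in 25 cells, Umod UMIs in 15 and Slc12a3 UMIs in 6. In the library labelled SARATg AA 1 a cell had 171 Slc12a3, 27 Umod and 250 connecting tubule UMIs beside 7 of Aqp2. Another cell there had 63 Umod UMIs beside 4 of Aqp2, and another had 33 beside 5. Whether cells with both kinds of transcripts are connecting tubule cells, doublets or carry free RNA was not tested, and no doublet caller was run.

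**Figure D4:**
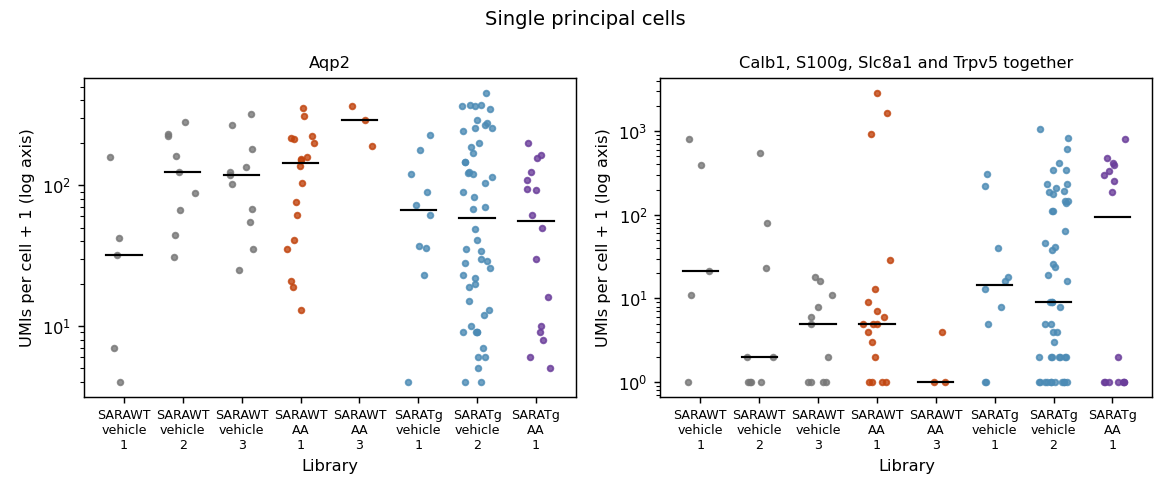
UMIs per cell + 1 (log axis) of Aqp2 (left) and of Calb1, S100g, Slc8a1 and Trpv5 together (right) in each of the 124 principal cells by library, with a line at the median. Connecting tubule UMIs ran from 0 to 2870, and the 33 cells above 100 came from 6 of the 8 libraries.

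Connecting tubule transcripts differed widely between libraries. S100g, the calcium-binding protein calbindin D9k, was at 28527, 6111 and 19.9 CPM in SARAWT vehicle 1 to 3, 14919 and 0 in the libraries labelled SARAWT AA 1 and 3, 5589.9 and 12377 in SARATg vehicle 1 and 2 and 12630.4 in that labelled SARATg AA 1. Klk1, a kallikrein released by the connecting tubule, was at 7809, 10.7 and 0 CPM in SARAWT vehicle 1 to 3, 1751 and 0 in the libraries labelled SARAWT AA 1 and 3, 32.0 and 3038 in SARATg vehicle 1 and 2 and 12303 in that labelled SARATg AA 1. Both were thus near 0 in SARAWT vehicle 3 and SARAWT AA 3 and reached their highest levels in SARAWT vehicle 1 and in that labelled SARATg AA 1, respectively. Klk1 was also low in SARAWT vehicle 2 and SARATg vehicle 1. Calb1 was present in every library, at 870.3, 751 and 312 CPM in SARAWT vehicle 1 to 3, 1889 and 65.5 in the libraries labelled SARAWT AA 1 and 3, 1003 and 832 in SARATg vehicle 1 and 2 and 1453 in that labelled SARATg AA 1. Summed over the 10 connecting and distal convoluted tubule markers, the level was 37616, 7087 and 577 CPM in SARAWT vehicle 1 to 3, 18879 and 262 in the libraries labelled SARAWT AA 1 and 3, 6774 and 16508 in SARATg vehicle 1 and 2 and 27481 in that labelled SARATg AA 1. The 19 proximal tubule markers found in the files summed to 1451, 6165 and 106 CPM in SARAWT vehicle 1 to 3, 1812 and 65.5 in the libraries labelled SARAWT AA 1 and 3, 501 and 3024 in SARATg vehicle 1 and 2 and 94.2 in that labelled SARATg AA 1, with no marker at 0 over all principal cells. SARAWT AA 3 was lowest in both lists. In 2 libraries 1 cell held nearly all of the proximal tubule UMIs: 1 of the 9 cells of SARAWT vehicle 2, with 27232 UMIs, held 554 of its 575 proximal tubule UMIs, and 1 of the 18 cells of that labelled SARAWT AA 1, with 30263 UMIs, held 586 of 593.

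A second set of genes differed between libraries within the vehicle group. H2-K1 was at 193, 365 and 2951 CPM in SARAWT vehicle 1 to 3, 1925 and 1441 in the libraries labelled SARAWT AA 1 and 3, 395 and 441 in SARATg vehicle 1 and 2 and 569.6 in that labelled SARATg AA 1. B2m, the light chain of class I molecules, was at 169, 129 and 1724 CPM in SARAWT vehicle 1 to 3, 944 and 983 in the libraries labelled SARAWT AA 1 and 3, 117 and 201 in SARATg vehicle 1 and 2 and 408 in that labelled SARATg AA 1. Krt19, a keratin, was at 0, 21.4 and 272 CPM in SARAWT vehicle 1 to 3, 400.3 and 229 in the libraries labelled SARAWT AA 1 and 3, 0 and 4.57 in SARATg vehicle 1 and 2 and 22.4 in that labelled SARATg AA 1. SARAWT vehicle 3 stood with the libraries labelled SARAWT AA 1 and 3 in all 3 genes, and SARAWT vehicle 1 and 2 stood with SARATg vehicle 1 and 2. The 23 interferon and antigen presentation genes summed to 2176, 2123 and 13541 CPM in SARAWT vehicle 1 to 3, 9580.1 and 10449 in the libraries labelled SARAWT AA 1 and 3, 2678 and 3356 in SARATg vehicle 1 and 2 and 5633 in that labelled SARATg AA 1. The injury list summed to 6987, 4782 and 17832 CPM in SARAWT vehicle 1 to 3, 10885 and 9991 in the libraries labelled SARAWT AA 1 and 3, 5739 and 6742 in SARATg vehicle 1 and 2 and 21919 in that labelled SARATg AA 1. Leukocyte markers other than Ptprc, which summed to 24.2, 10.7 and 683 CPM in SARAWT vehicle 1 to 3, 183 and 295 in the libraries labelled SARAWT AA 1 and 3, 32.0 and 89.2 in SARATg vehicle 1 and 2 and 121 in that labelled SARATg AA 1, were also highest in SARAWT vehicle 3. The cell of SARAWT vehicle 3 that held most of them, described above, had 19023 UMIs. Over all kept cells, too, both lists were lower in SARAWT vehicle 1 and 2 than in SARAWT vehicle 3 and in the libraries labelled SARAWT AA 1 and 3 and SARATg AA 1, and the share of cells with Ptprc UMIs was lowest in SARAWT vehicle 1 and 2. In these sums the interferon and antigen presentation genes summed to 2725, 2654 and 20140.4 CPM in SARAWT vehicle 1 to 3, 20726 and 16107 in the libraries labelled SARAWT AA 1 and 3, 10033 and 6540.2 in SARATg vehicle 1 and 2 and 19833 in that labelled SARATg AA 1. The injury list summed to 468, 2825 and 7914 CPM in SARAWT vehicle 1 to 3, 7307 and 8447 in the libraries labelled SARAWT AA 1 and 3, 1874 and 3435 in SARATg vehicle 1 and 2 and 7399.6 in that labelled SARATg AA 1. The part of free RNA from the other cells of each library in the levels of principal cells was not tested. Of 16 leukocyte markers, Ptprc, Cd3e and Cd79a had no UMI in principal cells. S100a6, a calcium-binding protein of the injury list, was at 24.2, 10.7 and 703 CPM in SARAWT vehicle 1 to 3, 97.8 and 2260.1 in the libraries labelled SARAWT AA 1 and 3, 42.7 and 45.7 in SARATg vehicle 1 and 2 and 888 in that labelled SARATg AA 1.

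**Figure D5:**
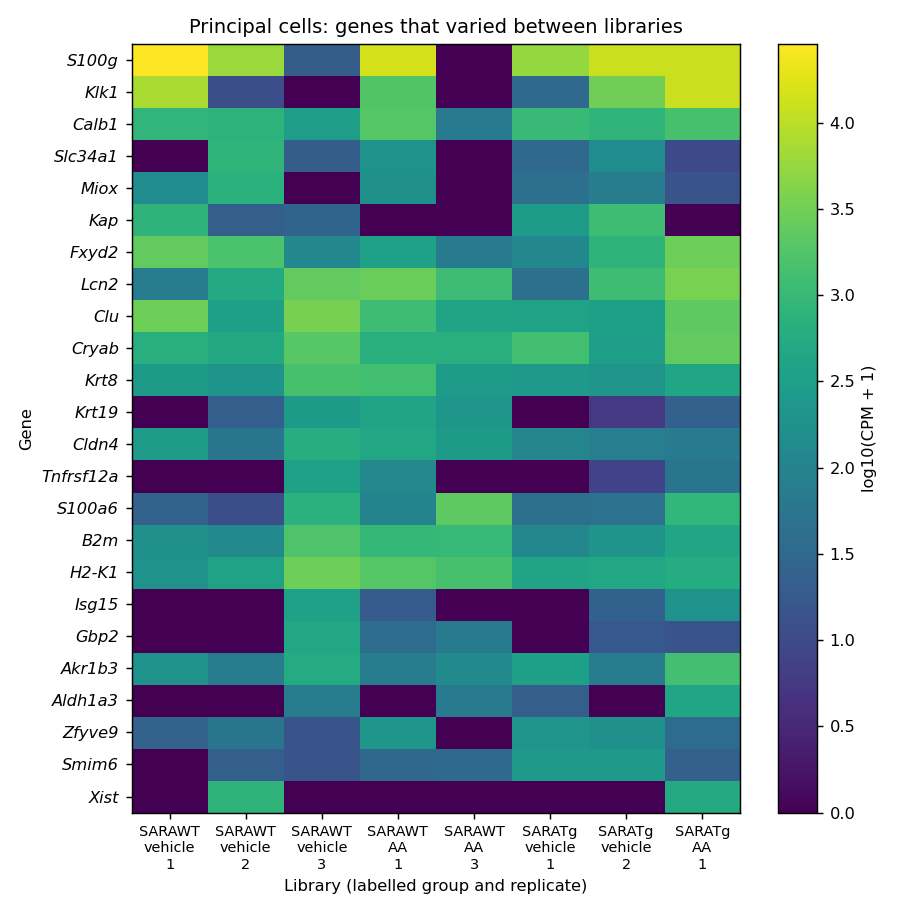
Levels in principal cells of 24 genes picked for their spread, as log10(CPM + 1) on the colour scale, with the 8 libraries in columns. S100g, Klk1 and Calb1 were low in SARAWT vehicle 3 and SARAWT AA 3, while B2m, H2-K1 and Krt19 were high there and in the library labelled SARAWT AA 1.

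The effect of AA in SARAWT mice was asked of the libraries with at least 10 principal cells, which left 1 vehicle library (SARAWT vehicle 3) and 1 AA library (labelled SARAWT AA 1, whose Zfyve9 level goes against its label). The fit took its spread from the pair of SARATg vehicle libraries and assumes that the lone libraries vary like them, so its calls are a comparison of these 2 libraries and not of the treatment. Of 5043 genes, 32 passed the test (0.635%), 17 higher (0.337%) and 15 lower (0.297%) in the AA library. Zfyve9 was among the higher genes. The higher genes also held 3 of 7 tested connecting and distal convoluted tubule markers and 8 of 12 tested proximal tubule markers, and the lower genes 4 of 23 interferon and antigen presentation genes. Cd74, the 1 leukocyte marker tested, was also lower (-2.77 ± 0.49, adjusted p = 6.38e-06), and the part of leukocyte transcripts in these calls was not tested. DESeq2 called 1 gene in this comparison, with 1 of 7 connecting and distal convoluted tubule markers, 0 of 12 proximal tubule markers and 0 of 23 interferon and antigen presentation genes among its calls. The 1 cell named above held nearly all proximal tubule UMIs of the AA library, and 3 of its 18 cells held 6031 of its 6178 connecting and distal convoluted tubule UMIs. In the same 5 libraries without cells that had a UMI of the 6 proximal tubule genes, a choice made after this was seen, 20 genes passed, with 0 of 1 tested proximal tubule marker and 3 of 7 connecting and distal convoluted tubule markers among them. Without cells that had a UMI of Calb1, Slc8a1, Trpv5 or S100g, which left 2 to 11 cells per library, 0 of 1566 genes passed edgeR's test, with 57 at an unadjusted p under 0.05. The fitted difference was 9.59 ± 0.97 (adjusted p = 4.40e-19) for S100g and 5.12 ± 0.70 (adjusted p = 3.17e-10) for Gpx3, a secreted glutathione peroxidase of the proximal tubule, which turned to -0.86 without the cells with proximal tubule UMIs. It was -8.998 ± 1.12 (adjusted p = 1.73e-12) for Ifit3, an interferon-induced gene at 0, 10.7 and 272 CPM in SARAWT vehicle 1 to 3 and 0 and 32.8 in the libraries labelled SARAWT AA 1 and 3, and -2.82 ± 0.54 (adjusted p = 6.37e-05) for Akr1b3. Across all 5 SARAWT libraries with principal cells the levels of S100g, Klk1, Ifit3 and Akr1b3 given here overlapped between vehicle and AA.

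With all libraries of at least 3 cells, 3 vehicle and 2 AA libraries could be compared, a choice made after the cell counts were seen. Then 0 of 3845 genes passed edgeR's test (0%), with 86 at an unadjusted p under 0.05, and DESeq2 called 2, Xist and Hao2, both lower in the AA libraries. Without a filter on low counts edgeR called 11 of 14033. In these 5 libraries 1 UMI was worth between 3.06 and 32.8 CPM. Levels of Scnn1g, Scnn1b, Avpr2 and Aqp4 overlapped between the vehicle and AA libraries of SARAWT mice. The difference of S100g turned to -0.50 in edgeR's fit with at least 3 cells.

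The transgene was examined in vehicle libraries. With at least 10 cells, 2 SARATg libraries stood against SARAWT vehicle 3 alone, and 194 of 5043 genes passed (3.85%), 66 higher (1.31%) and 128 lower (2.54%) in SARATg. The lower genes held 12 of 23 interferon and antigen presentation genes, 8 of 16 tubule injury genes and 7 of 20 keratin, junction and adhesion genes, and the higher genes 9 of 12 proximal tubule and 3 of 7 connecting and distal convoluted tubule markers. Of the 52 cells of SARATg vehicle 2, 4 held 1106 of its 1323 proximal tubule UMIs. In the same 5 libraries without cells with proximal tubule UMIs 126 genes passed, 29 higher and 97 lower, and the lower genes held 11 of 23 interferon and antigen presentation, 5 of 16 tubule injury and 5 of 19 keratin, junction and adhesion genes. Without cells with connecting tubule UMIs 0 of 1566 passed edgeR's test, with 114 at an unadjusted p under 0.05. Markers of other cell types moved in the same fit. Cd74, the 1 leukocyte marker tested, was lower (-4.83), and it was at 550.4 CPM in SARAWT vehicle 3. Plvap, an endothelial gene, was 1 of 5 tested endothelial markers called higher. The 10 endothelial markers summed to 574 CPM in SARATg vehicle 2 and to between 0 and 39.8 CPM in the other 7 libraries, all 10 were detected in SARATg vehicle 2, and 3 of its cells held 245 of its 251 endothelial UMIs. The part of leukocyte and endothelial transcripts in the calls was not tested. DESeq2 called 12 genes, and its lower genes held 4 of 23 interferon and antigen presentation, 2 of 16 tubule injury and 2 of 20 keratin, junction and adhesion genes, with 0 of 12 proximal tubule markers higher. In edgeR's fit mouse Zfyve9 was higher by 3.82 ± 0.75. Tnfrsf12a, the receptor of the cytokine TWEAK, differed by -5.82 ± 0.61 (adjusted p = 4.50e-18) and Krt19 by -5.94 ± 0.68 (adjusted p = 3.67e-15). Tnfrsf12a was at 0, 0 and 358 CPM in SARAWT vehicle 1 to 3, 122 and 0 in the libraries labelled SARAWT AA 1 and 3, 0 and 6.86 in SARATg vehicle 1 and 2 and 53.8 in that labelled SARATg AA 1, so SARAWT vehicle 1 and 2, which were too small for this fit, lay at 0, near SARATg vehicle. Among the vehicle libraries Cd14, a coreceptor for endotoxin, was likewise high in SARAWT vehicle 3 alone, but unlike Tnfrsf12a it was high in SARAWT AA 3. It was at 0, 10.7 and 252 CPM in SARAWT vehicle 1 to 3, 214 and 262 in the libraries labelled SARAWT AA 1 and 3, 0 and 9.14 in SARATg vehicle 1 and 2 and 108 in that labelled SARATg AA 1.

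When SARAWT vehicle 1 and 2 were included, 1 of 3845 genes passed (0.0260%), and Zfyve9 had a difference of 2.74 ± 0.77 that did not pass (adjusted p = 0.9999). The gene was Smim6, which encodes a small integral membrane protein, with a difference of 4.14 ± 0.66 (adjusted p = 0.0254). Smim6 did not pass with DESeq2 (adjusted p = 0.413), whose 1 call was Xist, or without SARAWT vehicle 1 (adjusted p = 0.0547), SARAWT vehicle 3 (adjusted p = 0.0646), SARATg vehicle 1 (adjusted p = 0.0539) or SARATg vehicle 2 (adjusted p of 1), and its adjusted p was as low as 3.71e-05 in the other alternatives. It was at 0, 21.4 and 13.3 CPM in SARAWT vehicle 1 to 3, 30.6 and 32.8 in the libraries labelled SARAWT AA 1 and 3, 245 and 249 in SARATg vehicle 1 and 2 and 22.4 in that labelled SARATg AA 1. Both SARATg vehicle libraries lay far above the other 6, those labelled AA included. The difference in AA effect between genotypes rested on single AA libraries whose Zfyve9 levels go against both labels. It was past the test for 101 of 5043 genes (2.00%), 51 higher (1.01%) and 50 lower (0.991%), and with libraries of at least 3 cells for 0 of 3845 (0%), with 91 at an unadjusted p under 0.05.

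Whether AA changed principal cells differently from intercalated, thick ascending limb or distal convoluted tubule cells was not run with at least 10 cells, since 2 SARAWT libraries held that many principal cells. With at least 3 cells, 3 vehicle and 2 AA libraries entered, 1 of them with Zfyve9 against its label. Fits given below without the library labelled SARAWT AA 1 thus had SARAWT AA 3, with 3 principal cells, as their only AA library. Those without SARAWT AA 3 had only that labelled SARAWT AA 1. The AA effect in principal cells minus that in intercalated cells passed for 1 of 5331 genes (0.0188%), which was higher (0.0188%). It was Gatm, a creatine synthesis enzyme and proximal tubule marker (5.08 ± 1.03, adjusted p = 0.0344). Gatm was at 24.2, 21.4 and 6.63 CPM in SARAWT vehicle 1 to 3 and 251 and 0 in the libraries labelled SARAWT AA 1 and 3, and its difference was -1.42 without that labelled SARAWT AA 1 (adjusted p = 0.965) and 3.85 without SARAWT vehicle 2 (adjusted p = 0.713). Against thick ascending limb cells 2 of 5438 passed (0.0368%), both lower (0.0368%). They were Anxa1, an annexin of the injury list (-6.04 ± 0.98, adjusted p = 4.16e-05), and Tuba1a, a tubulin (-4.61 ± 0.95, adjusted p = 0.00977). Neither passed with a replicate block (Anxa1 -6.18, adjusted p = 0.924) or without SARAWT vehicle 1 and 2 (Anxa1 -4.27, adjusted p of 1). Tuba1a did not pass without SARAWT vehicle 2 (adjusted p = 0.155), SARAWT vehicle 3 (adjusted p = 0.107) or that labelled SARAWT AA 1 (adjusted p = 0.0696), without which 65 genes passed. Against distal convoluted tubule cells 32 of 6882 passed (0.465%), 28 higher (0.407%) and 4 lower (0.0581%), and the higher genes held 9 of 16 proximal tubule markers. Without that labelled SARAWT AA 1, where 1 cell held 586 of 593 proximal tubule UMIs, 39 passed there, 3 higher and 36 lower, and it was 12 without SARAWT vehicle 1 and 19 without SARAWT vehicle 3. Against intercalated cells it was 2 without SARAWT vehicle 1 or 3 and 7 without SARAWT vehicle 2 or SARAWT AA 3, and against thick ascending limb cells 5 without SARAWT vehicle 1 and 7 without SARAWT AA 3. DESeq2 called 0, 2 and 0 genes in the 3 comparisons, with 93 and 121 at an unadjusted p under 0.05 against intercalated and distal convoluted tubule cells. The 2 that DESeq2 called against thick ascending limb cells were Anxa1 (-6.57, adjusted p = 0.0363) and Tmsb4x (-2.79, adjusted p = 1.07e-11). Tuba1a was not among them (-4.93, adjusted p = 0.270).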

How the data were processed

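Kidney libraries were 10x 3′ single-cell libraries of sorted cells. The deposited values were UMI counts per gene and barcode for 31053 genes, which the authors made with Cell Ranger 3.0.2 (mm10, with Seurat 2.3.4 also named in the submitters' processing notes), and they were used as deposited. Cells were gated on UMIs, no doublet caller was run, and counts were summed per library and cell type. Sums were tested with edgeR 4.0.16 in R 4.3.3 (filterByExpr with a minimum count of 10, TMM, glmQLFit and glmQLFTest, two-sided, Benjamini-Hochberg adjustment over all genes tested, threshold 0.05), and with DESeq2 1.42.0 as an alternative. Group fits took libraries with at least 10 principal cells, and comparisons of cell types had the library as a block. CPM is counts per 1000000 UMIs, summed over the gated cells. Ratios were taken on UMIs summed over the 5 libraries, relative to the summed totals of each cell type. For a cell type with no UMI they were taken against 3 counts over its 5 libraries. The scripts were tested on simulated data.

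Intercalated cells had at least 3 UMIs of Atp6v1g3 and 1 of Slc4a1, Slc26a4 or Aqp6, thick ascending limb cells at least 3 of Slc12a1 and 1 of Umod, and distal convoluted tubule cells at least 3 of Slc12a3 and 1 of Calb1, Pvalb or Trpm6, all without Ptprc and with at most 1 Aqp2 UMI. Named genes were up to 10 per direction and comparison with the largest change past the threshold, no overlap between groups and at least 20 CPM, together with list members past the threshold and the 4 most abundant members of each list, and some of these genes are not reported here. Members and lists were chosen with earlier results of these data known. The type comparisons, the fits with at least 3 cells per library and those without cells holding transcripts of other segments in the same 5 libraries were chosen after seeing the data, as was the count of list members without genes that passed the filter through 1 type.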

Additional observations from a re-analysis of the deposited data

Results flagged for a closer look

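The difference between the AA effects of SARATg and SARAWT mice passed edgeR's quasi-likelihood test for 101 genes, in a fit with 1 library in 3 of its 4 groups. The log2 difference of the effects (SARATg minus SARAWT) was 14.16 for Gm10260, 13.70 for Aldh1a3, 11.001 for Ifit3, 10.94 for Vcam1, 8.88 for Rprm, 8.39 for Nupr1, 7.62 for Isg15, 7.40 for Rnf183, 7.13 for S100a6 and 6.79 for Ociad2. It was -17.50 for Pck1, -15.05 for Fbp1, -14.67 for Acsm2, -13.61 for Cyp2e1, -13.22 for G6pc, -13.07 for Pdzk1, -11.36 for Maf, -10.78 for Akr1c21, -10.64 for Lrp2 and -10.54 for Miox. Pck1, Fbp1, Acsm2, Lrp2 and Miox are on the list of proximal tubule markers, which is not complete. Many of these genes had no UMI in at least 1 of the libraries compared, so the fitted values depend on the prior count of the fit and are no bounds. Pck1, for example, was at 0 CPM in SARAWT vehicle 3 and in the library labelled SARATg AA 1, and at 214 CPM in that labelled SARAWT AA 1. In the latter, 1 of 18 cells held 586 of 593 proximal tubule UMIs. Both AA libraries of this fit had Zfyve9 levels that go against their labels, and with libraries of at least 3 cells 0 genes passed edgeR's test, with 91 at an unadjusted p under 0.05. The difference between the AA effect in principal cells and that in another cell type of the same SARAWT libraries, with at least 3 cells, passed for 1 gene against intercalated, 2 against thick ascending limb and 32 against distal convoluted tubule cells. The log2 difference (principal minus other) was 5.08 for Gatm against intercalated cells and -6.04 for Anxa1 and -4.61 for Tuba1a against thick ascending limb cells.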

How the results depend on the processing

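Of 97 named differences past the threshold between principal cells and the 3 other cell types that did not pass the filter on low counts through 1 type alone, 76 stayed past the threshold under every alternative run and none changed sign. There were 9 alternatives against intercalated cells and 10 against each other type. The stricter cell filter described below left too few cells for a fit against intercalated cells. No alternative of these comparisons left out cells with connecting or proximal tubule UMIs. The other 21 were lost under at least 1: Cdkn1a, Cldn4, Cldn8, Gsta3, Mt2 and Tgfbr2 against intercalated cells, Akr1b3, Cdkn1a, Cryab, Cyb5a, H2-K1, Hes1, Kcnj10, Scnn1a, Slc38a2, Tfap2b, Tfcp2l1 and Tgfbr2 against thick ascending limb cells, and Cdkn1a, H2-K1 and Slc38a2 against distal convoluted tubule cells. Of these, 7 were lost with DESeq2, 13 with the stricter cell filter described next, and 12 each without the library labelled SARAWT AA 1 and without SARAWT vehicle 3. Against thick ascending limb cells Kcnj1 gained a call with at least 3 cells and without the library labelled SARATg AA 1, as did Scnn1a against distal convoluted tubule cells with at least 3 cells. Among differences that had not passed, Scnn1a (intercalated) came to -0.0043 without a filter and -0.12 to 0.20 with 1 library left out, Mt1 (intercalated) to -0.24 with at least 3 cells and -0.00056 to 0.46, Gnas (thick ascending limb) to -0.0048 without a filter and -0.059 to 0.078, Kcnj1 (distal convoluted tubule) to -0.036 without a filter, -0.083 with the stricter filter and -0.22 to 0.22, and Zfyve9 (distal convoluted tubule) to -0.21 to 0.087. Without a filter on low counts 1650 genes passed against intercalated and 1491 against thick ascending limb cells, and with a stricter cell filter (500 or more genes, mitochondrial UMIs up to 15%) 489 passed against thick ascending limb cells. Leaving out 1 library gave 700 to 942, 547 to 786 and 996 to 1361 calls against intercalated, thick ascending limb and distal convoluted tubule cells. With at least 10 cells per library, DESeq2 called 1 gene for AA in SARAWT, 12 for the transgene and 5 for the difference in AA effect, which fell to 0 calls with at least 3 cells. In the same 5 libraries without cells with proximal tubule UMIs these gave 20, 126 and 48 calls (Gpx3 -0.86 for AA), and without cells with connecting tubule UMIs 0 each (Isg15 0.63 for AA). With at least 3 cells, AA in SARAWT gave 2 calls with DESeq2, 11 without a filter, 8 with the stricter cell filter, 2 without the top 5% of cells by UMIs, 12 without SARAWT vehicle 1 and 2, and 0 to 11 when 1 library was left out. The transgene gave 27 without a filter, 39 with the stricter cell filter, 10 without the top 5%, 2 without cells with any connecting tubule UMI, 0 with cells thinned to 1000 UMIs, 52 without SARAWT vehicle 1 and 2, and 0 to 26 when 1 library was left out, the 26 without SARAWT vehicle 2. The minimum of 3 cells was applied again to each cell set. SARAWT AA 3 held 0 cells with the stricter filter and 2 without the top 5%. Both of these AA fits thus had 1 AA library, that labelled SARAWT AA 1. Without cells with connecting tubule UMIs, SARATg vehicle 1 held 2 cells and SARAWT vehicle 1 held 1. That transgene fit thus had SARATg vehicle 2 as its only SARATg vehicle library. The causes of these changes in calls were not tested. With at least 3 cells, 7 genes named for AA reversed (Klk1 -1.33, S100g -0.50, Miox -1.12, Keg1 -1.26, Fbp1 -0.43, Acsm2 -0.66, S100a6 2.01), as did 5 named for the transgene (Klk1 -0.60, S100g -0.27, Acsm2 -0.54, Miox -2.09, Akr1c21 -1.72). With cells without Ptprc as the denominator, mean shares were 0.230% and 0.536% in SARAWT vehicle and AA and 0.937% and 0.612% in SARATg vehicle and AA. Mean shares with 1 library left out ran from 0.0639% to 0.116%, 0.0267% to 0.145% and 0.147% to 0.789% in SARAWT vehicle, SARAWT AA and SARATg vehicle.

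Libraries with the same replicate number did not deviate together from their group means (r = -0.0610 and -0.0627 over 2 pairs). With 2 AA libraries, their deviations from the group mean are opposite by construction. The 2 values are therefore not independent and cannot decide whether the numbers pair the libraries. With at least 3 cells, a replicate block gave 0 calls for AA, 5 for the transgene and 6 for the difference in AA effect. With at least 10 cells, the block, leave-one-out and cell sets that left a group without such a library could not be fitted. The AA effect by cell type, with at least 3 cells, gave against intercalated, thick ascending limb and distal convoluted tubule cells 0, 2 and 0 calls with DESeq2, 4, 2 and 38 with RLE size factors, 2, 3 and 18 without a filter, 6, 15 and 3 with the stricter cell filter, 0, 0 and 1 without SARAWT vehicle 1 and 2, 0, 0 and 5 with the replicate block, and 1 to 7, 2 to 65 and 12 to 39 with 1 library left out. Gatm reversed to -3.87 with the stricter cell filter and -2.16 without SARAWT vehicle 1 and 2, and ran from -1.42 to 5.54 with 1 library left out. With the stricter cell filter SARAWT AA 3 held 0 principal cells. Fits of the AA effect by cell type with that filter thus had 1 AA library, that labelled SARAWT AA 1. Those that left out an AA library also had a single AA library.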
